A study of Mus musculus with 6 samples.

Results

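Astrocytes of the mouse septal area were examined in single-nucleus RNA-seq libraries, and the nuclei described here are those in which the genes Gldc, Grin2c, Ranbp3l and Rorb led. They were 6230 of 55537 barcodes. The 6 libraries all came from wild type mouse brain, septal area, and form 1 group, so no conditions were compared. The labels used here give no treatment, age or sex, and nothing in them says that the libraries came from separate animals. Each p-value therefore measures only the spread between these libraries, which may be technical.

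Members were chosen by their own counts of unique molecular identifiers (UMIs, each standing for 1 captured RNA molecule). A nucleus entered with at least 500 detected genes, at most 5% mitochondrial UMIs, at least 8 UMIs of the glutamate transporter gene Slc1a2 and at most 1 UMI of Gad1 plus Gad2, the genes for GABA-synthesising enzymes. Among the 9869 nuclei that passed, 3 gene sets were summed in each nucleus, and a set led if its sum was the largest without a tie and at least 4. The set of Grin2c, Gldc, Ranbp3l and Rorb led in 6230 nuclei, called Gldc/Grin2c astrocytes here. The set of Lrig1, Slc6a11, Itih3 and Aldh1a1 led in 1434 nuclei, the Slc6a11/Itih3 astrocytes. The set of Adamts18, Veph1, Gfap, Igfbp5 and Slc38a1 led in 904 nuclei, the Gfap/Adamts18 astrocytes. Of the remaining 1301 nuclei, 647 had a tie for the largest sum and 654 had a largest sum under 4.

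Astrocytes take up the transmitter glutamate from around synapses and return it to neurons as glutamine, buffer potassium, supply lactate and lipids, and secrete matrix and synapse-forming proteins. They carry a regional identity laid down by the progenitors they come from, so that astrocytes of the dorsal forebrain keep transcription factors of the pallium and those of ventral regions keep others. Of the genes that chose the members, Gldc encodes glycine decarboxylase, the P-protein of the mitochondrial glycine cleavage system. Grin2c encodes an NMDA receptor subunit, Ranbp3l a RAN-binding protein and Rorb an orphan nuclear receptor of the ROR family.

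The Gldc/Grin2c astrocytes held 60.4% to 66.7% of the gated nuclei, or 63.0 ± 2.50% (SD, n = 6 libraries), against 14.8 ± 1.91% for Slc6a11/Itih3 and 9.29 ± 1.17% for Gfap/Adamts18 astrocytes. By library their numbers were 1237, 1142, 785, 1197, 1050 and 819 nuclei, which made 65.1%, 66.7%, 61.7%, 60.9%, 63.1% and 60.4% of the gated nuclei of replicates 1 to 6. The exact binomial interval (95%) was narrowest in replicate 1, at 62.9% to 67.2%, and widest in replicate 3, at 59.0% to 64.4%. The shares thus lay close together in every library, and these intervals cover counting error only. Of all nuclei that passed the filters on genes and mitochondrial UMIs, the class made up 11.4 ± 0.789%. The share moved with the gate. It was 53.7% when 4 UMIs of Slc1a2 were enough, 72.7% when 16 were required, and 48.7% when the leading sum had to be at least 2 times the next.

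Near the edge of the rule lay 370 members, 5.94%, whose own sum was exactly 4. Just outside lay 210 gated nuclei in which the same set led with a sum of exactly 3, and 284 in which it tied for the largest at 4 or more. The lead was 1 UMI in 416 members (6.68%) and 5 UMIs or more in 4251 members (68.2%).

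The median nucleus of the Gldc/Grin2c astrocytes held 3776 to 4823 UMIs by library, against 3990 to 5118 in Slc6a11/Itih3 and 3443 to 4686 in Gfap/Adamts18 astrocytes. In 6 of 6 libraries it lay below that of the Slc6a11/Itih3 and above that of the Gfap/Adamts18 astrocytes. Summed over the nuclei of a class, a library gave 4470159 to 6787172 UMIs, against 1133080 to 1459238 and 728721 to 1035835 UMIs. The other classes, with fewer nuclei, are therefore measured less precisely. Library totals ran from 70183544 to 95175260 UMIs. No more than 0.433% of a library's barcodes recurred in another, counted over the smaller of each pair, and at most 1 barcode did among the Gldc/Grin2c astrocytes. The sums of this class correlated across genes between libraries with Pearson r of 0.985 to 0.989 on log2 values. No pair agreed within sampling noise, since the chi-square per gene was 2.12 to 3.66.

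The label of astrocyte fitted the marker genes. The 10 astrocyte markers summed to 6474 ± 254 CPM (UMIs scaled to a class total of 1000000; SD, n = 6) in the Gldc/Grin2c astrocytes, against 6608 ± 266 in Slc6a11/Itih3 and 4901 ± 474 in Gfap/Adamts18 astrocytes. In oligodendrocyte nuclei the same sum was 320 CPM and in GABAergic neuron nuclei 149 CPM. No astrocyte marker was at 0 in the class. Their levels differed between classes in the test given below. Of the 10, 3 were called higher and 6 lower than in Slc6a11/Itih3 astrocytes, against 7.27% and 6.74% of all genes. Compared with Gfap/Adamts18 astrocytes 7 were called higher and 0 lower, against 13.9% and 13.6% of all genes. The water channel gene Aqp4 had 123 to 143 CPM (median 131) in the Gldc/Grin2c astrocytes, against 115 to 149 CPM (median 132) in Slc6a11/Itih3 and 89.1 to 145 CPM (median 130.5) in Gfap/Adamts18 astrocytes, and neither difference was called. Markers of other cell types were present, and only the fibroblast gene Lum was at 0. The 8 neuron markers summed to 2154 to 3447 CPM in the Gldc/Grin2c astrocytes, 1928 to 3213 CPM in Slc6a11/Itih3 and 3290 to 5249 CPM in Gfap/Adamts18 astrocytes, against a mean of 20130 CPM in GABAergic neurons. The 7 oligodendrocyte markers summed to 954 to 1275, 763 to 1335 and 933 to 1719 CPM in the same order of classes, against 9842 CPM in oligodendrocytes and 210 CPM in GABAergic neurons. The 5 pericyte or smooth muscle markers averaged 75.6, 57.4 and 57.2 CPM, against 5.68 CPM in oligodendrocytes and 3.20 CPM in GABAergic neurons. Most of that sum was Pdgfrb, at 69.4, 55.7 and 52.4 CPM in the 3 astrocyte classes. The 5 ependymal markers summed to 42.5 to 59.8, 24.0 to 54.8 and 25.5 to 193.5 CPM. On average the neuron and ependymal sums were higher in the Gfap/Adamts18 astrocytes (4119 and 104 CPM) than in the members (2581 and 53.6 CPM). The ranges over libraries overlapped. Of single genes tested, 5 of 7 neuron markers and 1 of 2 ependymal markers were called lower in the members than in that class. So were the 1 GABAergic and the 1 glutamatergic neuron marker tested, against 13.6% of all genes. The part of these sums in the differences from that class was not tested.

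The 4 genes of the leading set are a description, since they chose the nuclei. Rorb averaged 1553 ± 68.98 CPM in the Gldc/Grin2c astrocytes, 819 ± 86.01 CPM in Slc6a11/Itih3 and 429 ± 46.6 CPM in Gfap/Adamts18 astrocytes (SD, n = 6 throughout). Gldc averaged 355 ± 10.3 CPM, 75.4 ± 10.5 CPM and 107 ± 11.9 CPM in the same 3 classes. Grin2c averaged 247 ± 7.49 CPM, 97.1 ± 4.84 CPM and 42.7 ± 8.58 CPM, and Ranbp3l 255 ± 14.9 CPM, 53.5 ± 5.69 CPM and 57.97 ± 21.5 CPM. In each of these genes the 6 libraries of the Gldc/Grin2c astrocytes lay above all other class values, and the libraries differed little among themselves. Slc1a2, used in the gate of all 3 classes, averaged 6002 ± 269 CPM in the members, against 3660.2 ± 198 CPM and 3765 ± 253 CPM. Genes of the other sets were lower but not absent in the members. The GABA transporter gene Slc6a11 stood at 358 ± 21.1 CPM, against 1218 ± 100. CPM in the class it helped to define, and the intermediate filament gene Gfap at 33.4 ± 4.45 CPM, against 101 ± 27.7 CPM in the Gfap/Adamts18 astrocytes.

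**Figure D1:**
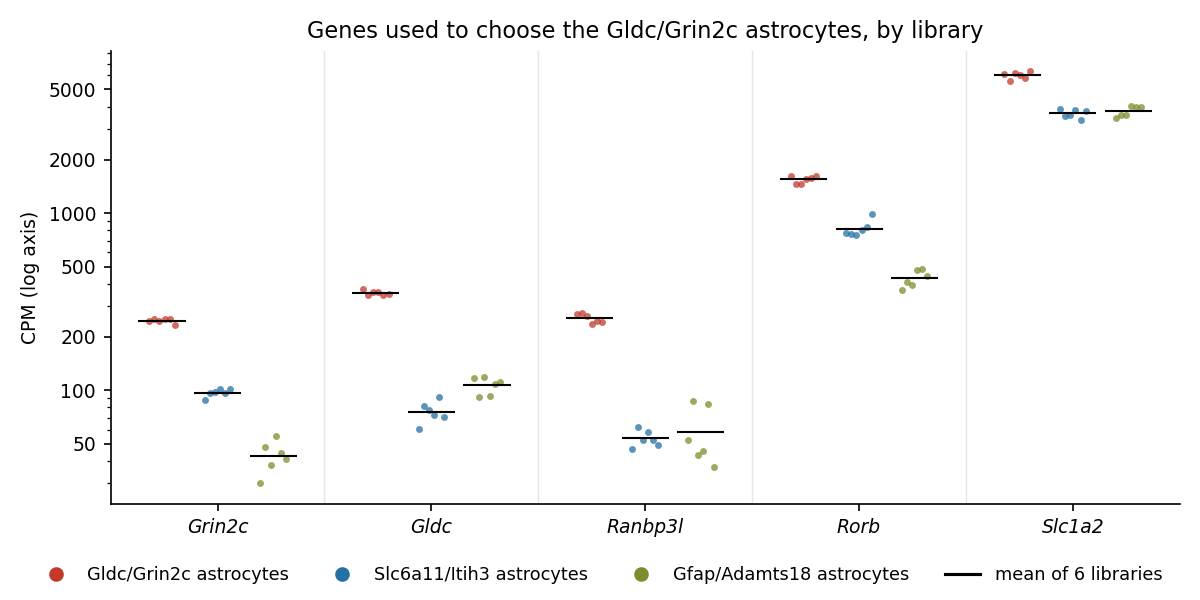
CPM (log axis) of the 4 genes of the leading set and of the gate gene Slc1a2 in the Gldc/Grin2c (red), Slc6a11/Itih3 (blue) and Gfap/Adamts18 (green) astrocytes, 1 point per library and a bar at the mean of 6 libraries. The red points of Grin2c lie between 233 and 252, above every blue and green point, which the choice of nuclei fixes.

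Within the class, Rorb gave 64.4 ± 1.34% of the UMIs of the leading set, and 98.9% of members held at least 1 Rorb UMI. Gldc was seen in 72.3% of members, Grin2c in 64.4% and Ranbp3l in 55.7%. All 4 genes were seen together in 29.6 ± 3.95% of members, with 23.6% to 34.4% by library, and a single gene of the set was seen in 7.11%. After thinning each nucleus to 4000 UMIs, which left out 2646 of 6230 members, Gldc was seen in 66.6 ± 2.18% of members, 23.8% of Slc6a11/Itih3 and 27.9% of Gfap/Adamts18 astrocytes. As the background from free RNA, Gldc was seen in 2.51% of thinned oligodendrocytes and 2.76% of thinned GABAergic neurons. The share in both other astrocyte classes was thus well above that background. Grin2c was seen in 56.4% of thinned members, against 31.2% of Slc6a11/Itih3 and 11.98% of Gfap/Adamts18 astrocytes, with 1.61% in oligodendrocytes.

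All other genes were compared between classes on the UMI sums of each class in each library, with the library as a block (edgeR's quasi-likelihood test, Benjamini-Hochberg adjustment over 10477 genes, threshold 0.05). Genes of the rule and mitochondrial genes were left out of the test. Genes that vary together with the rule genes from nucleus to nucleus differ between classes because of how the classes were drawn, so the differences describe the class. Against Slc6a11/Itih3 astrocytes, 762 genes were higher in the Gldc/Grin2c astrocytes (7.27% of those tested) and 706 lower (6.74%). Against Gfap/Adamts18 astrocytes, 1457 were higher (13.9%) and 1424 lower (13.6%). A gene was called above both or below both only if the larger of its 2 p-values passed after adjustment. By that test 270 genes (2.58%) stood above both other classes and 94 (0.897%) below both. The 6 values of the members lay wholly apart from the 6 of the other class in 9.24% of genes against Slc6a11/Itih3 and 16.2% against Gfap/Adamts18 astrocytes. The median log2 difference over all genes was -0.00 against Slc6a11/Itih3 and -0.01 against Gfap/Adamts18 astrocytes.

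Lama3, the laminin alpha-3 chain of basement membranes, had 151 to 180.1 CPM (median 160.1) in the Gldc/Grin2c astrocytes, against 9.44 to 17.8 CPM (median 15.2) in Slc6a11/Itih3 and 30.6 to 59.01 CPM (median 44.7) in Gfap/Adamts18 astrocytes. No library of one class overlapped another. The log2 difference was 3.44 ± 0.12 (SE) and 2.05 ± 0.11, with an adjusted p of 1.1e-12 for standing above both. Lama3 was seen in 34.5% of thinned members, against 4.11% of Slc6a11/Itih3 and 9.29% of Gfap/Adamts18 astrocytes and 10.1% of GABAergic neurons, so the last 2 shares were similar.

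Luzp2, a leucine zipper protein gene, had 6751 to 7462 CPM (median 7128) in the Gldc/Grin2c astrocytes, against 2016 to 2458 CPM (median 2296) in Slc6a11/Itih3 and 1372 to 1652 CPM (median 1518) in Gfap/Adamts18 astrocytes. Every library of the members lay above all others, and the differences were 1.65 ± 0.04 and 2.39 ± 0.04 on the log2 scale (adjusted p = 9.9e-20). Luzp2 was also the gene most like the 4 rule genes, with a mean Pearson r of 0.930 over the 18 class sums, followed by Ptn (0.915), Irak2 (0.912), Pigk (0.911) and Ctnnd2 (0.909). These sums share libraries and were divided by the rule genes themselves, so the correlations are descriptions.

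Dio2 encodes the type 2 deiodinase that activates thyroid hormone, and Hsd11b1 the enzyme that regenerates active glucocorticoid. Dio2 had 41.1 to 51.5 CPM (median 44.7) in the Gldc/Grin2c astrocytes, against 8.91 to 22.1 CPM (median 13.8) in Slc6a11/Itih3 and 5.35 to 15.1 CPM (median 12.2) in Gfap/Adamts18 astrocytes (log2 differences 1.71 ± 0.16 and 2.23 ± 0.20, adjusted p = 4.4e-08). Hsd11b1 had 25.2 to 37.3 CPM (median 29.8), against 7.06 to 18.1 CPM (median 10.4) and 3.82 to 17.1 CPM (median 9.70) (adjusted p = 1.2e-06). Both were higher in the members in 6 of 6 libraries against each class, without overlap. Dio2 was at 1.23 CPM in oligodendrocytes and 0.554 CPM in GABAergic neurons.

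Chrdl1 encodes a secreted antagonist of bone morphogenetic proteins (BMPs) that astrocytes release at synapses. It had 28.02 to 36.6 CPM (median 32.4) in the Gldc/Grin2c astrocytes, against 3.16 to 8.91 CPM (median 7.02) in Slc6a11/Itih3 and 6.86 to 16.6 CPM (median 10.6) in Gfap/Adamts18 astrocytes. The log2 differences were 2.29 ± 0.17 and 1.67 ± 0.18 (adjusted p = 3.0e-07), and again no class overlapped the members. The sialyltransferase gene St6galnac5 was 3.04 and 3.28 times as high in the members as in the other 2 classes, and the heparan sulfate sulfotransferase gene Hs3st3a1 6.52 and 2.72 times. Irak2, a kinase of interleukin-1 receptor signalling, was 2.77 and 3.34 times as high, and the stress-activated kinase gene Map3k5 3.16 and 2.55 times. Pigk, a subunit of the enzyme that attaches GPI anchors, was 2.76 and 3.39 times as high, and Arhgap31, a regulator of small GTPases, 2.41 and 2.50 times. All of them were higher in 6 of 6 libraries in both comparisons.

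Fewer genes stood below both classes. Ldb2, a cofactor of LIM-domain transcription factors, had 74.2 to 104 CPM (median 87.2) in the Gldc/Grin2c astrocytes, against 157 to 247 CPM (median 186) in Slc6a11/Itih3 and 233 to 333 CPM (median 296) in Gfap/Adamts18 astrocytes. The members lay below both without overlap (log2 differences -1.13 ± 0.09 and -1.55 ± 0.10, adjusted p = 5.6e-09). GABAergic neurons, however, held 327 CPM of Ldb2, and the neuron marker sum was higher on average in the Gfap/Adamts18 astrocytes. Acss3, a short-chain acyl-CoA synthetase gene that was at 4.55 CPM in oligodendrocytes and 3.89 CPM in GABAergic neurons, had 46.1 to 50.98 CPM (median 48.02) in the members, against 94.3 to 131 CPM (median 107) and 79.2 to 126 CPM (median 107) (adjusted p = 6.7e-08). The scavenger receptor gene Colec12 had 29.5 to 38.3 CPM (median 33.5), against 99.4 to 144 CPM (median 113) and 49.6 to 113 CPM (median 63.5). The carnitine and ergothioneine transporter gene Slc22a4, the flavin monooxygenase gene Fmo1 and the ATP-gated channel gene P2rx7 were lower in the members by 0.77, 0.86 and 0.73 on the log2 scale against Slc6a11/Itih3 astrocytes and by 0.90, 1.05 and 0.68 against Gfap/Adamts18 astrocytes. Also among the 12 named genes furthest below both were Phyhd1, Plekha6, Prtg, Maf, Eya4 and the imprinted non-coding RNA Kcnq1ot1, with log2 differences from -0.67 to -0.92 against the first class and from -1.56 to -0.66 against the second. The values of Maf overlapped between the members and the Slc6a11/Itih3 astrocytes.

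**Figure D2:**
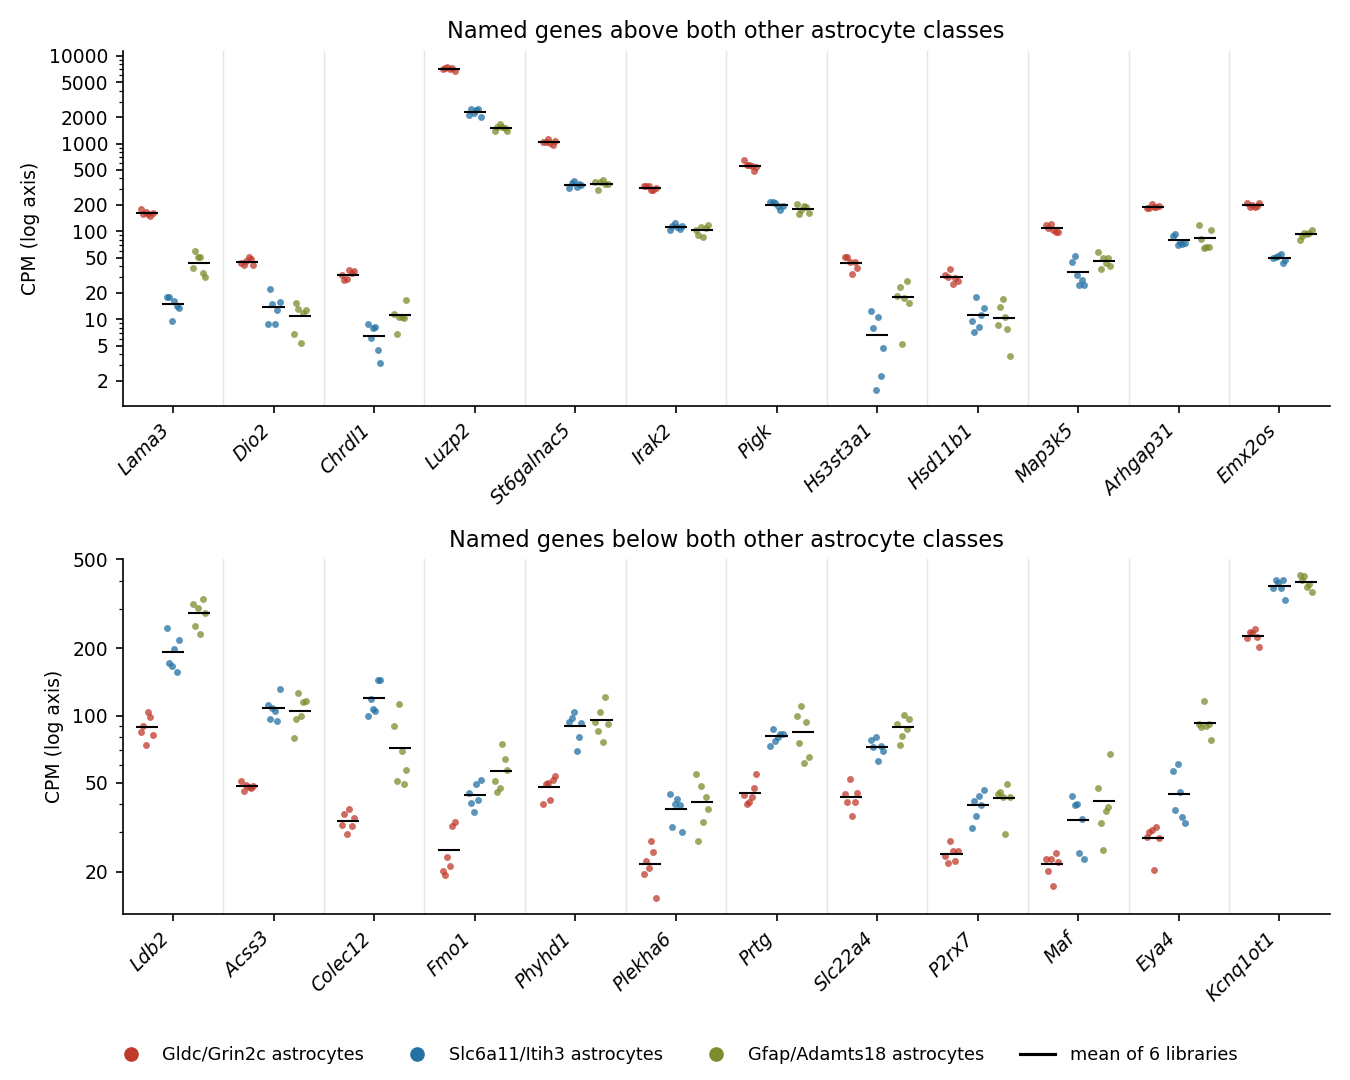
CPM (log axes) of the 12 named genes above both (upper panel) and the 12 below both (lower panel) other astrocyte classes, with Gldc/Grin2c astrocytes in red, Slc6a11/Itih3 in blue and Gfap/Adamts18 in green, 1 point per library and a bar at the mean. The red points of Lama3 lie between 151 and 180, above all blue and green points, and those of Ldb2 lie between 74.2 and 104, below all of them.

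Of 23 tested transcription factors that pattern the forebrain, 10 were higher in the Gldc/Grin2c than in the Slc6a11/Itih3 astrocytes (43.5%, against 7.27% of all genes). In that comparison 4 were lower (17.4%, against 6.74%), and the median log2 difference was 0.04. Compared with Gfap/Adamts18 astrocytes, 5 were higher and 5 lower (21.7% each, against 13.9% and 13.6% of all genes, median -0.02), with 3 lower without replicate 2, 3, 4 or 6 and 2 with ependymal marker nuclei removed. The list had 3 genes above both classes, namely Pax6, Emx2 and Lhx2. These 3 are transcription factors of dorsal forebrain progenitors. The median member of this list had 50.1 CPM in the Gldc/Grin2c astrocytes, against 27.9 CPM over all tested genes. Genes abundant in the members were called more often. Of the 4978 genes of at least 30 CPM in the members, 11.4% were called higher and 9.54% lower than in Slc6a11/Itih3 astrocytes. Against Gfap/Adamts18 astrocytes these shares were 23.1% and 14.5%. Here and below this cut is on the level in the members alone. It leaves out genes that are high only in another class, while the lists also hold genes under 30 CPM.

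Emx2 had 38.5 to 52.6 CPM (median 45.1) in the Gldc/Grin2c astrocytes, against 6.32 to 14.97 CPM (median 11.6) in Slc6a11/Itih3 and 21.2 to 34.1 CPM (median 25.1) in Gfap/Adamts18 astrocytes. The members were above both without overlap, by 2.01 ± 0.15 and 0.93 ± 0.14 on the log2 scale (adjusted p = 8.0e-05). Its antisense gene Emx2os had 189 to 213 CPM (median 198), against 44.2 to 55.1 CPM (median 50.6) and 79.2 to 103 CPM (median 94.1), and lay above both by 1.99 ± 0.07 and 1.26 ± 0.07. The sources used here do not say whether the counting used strand, so reads of Emx2 and Emx2os may not be fully separated. Pax6 had 72.03 to 95.5 CPM (median 76.8) in the members, against 14.2 to 25.6 CPM (median 21.3) and 36.1 to 53.5 CPM (median 44.96) (adjusted p = 1.9e-07). Lhx2 had 45.2 to 53.9 CPM (median 50.1), against 7.29 to 14.97 CPM (median 9.20) and 24.8 to 52.1 CPM (median 33.8) (adjusted p = 3.9e-03). Pax6 did not overlap between classes, while 1 or more libraries of Lhx2 in the Gfap/Adamts18 astrocytes reached the range of the members.

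Zic1, which marks septal and other midline progenitors, was higher than in Slc6a11/Itih3 astrocytes and was not called against Gfap/Adamts18 astrocytes. It had 130.4 to 196 CPM (median 141) in the Gldc/Grin2c astrocytes, against 46.6 to 75.02 CPM (median 66.5) in Slc6a11/Itih3 and 137 to 190.2 CPM (median 169) in Gfap/Adamts18 astrocytes, with log2 differences of 1.20 ± 0.08 (adjusted p = 7.3e-12) and -0.02 ± 0.07 (adjusted p = 0.88). Zic2, Zic4 and Zic5 were higher than in Slc6a11/Itih3 astrocytes as well. In the opposite direction, the ventral factor gene Nkx6-2 had 3.64 to 6.19 CPM (median 4.94) in the Gldc/Grin2c astrocytes, against 16.8 to 36.3 CPM (median 23.7) in Slc6a11/Itih3 astrocytes (-2.35 ± 0.18, adjusted p = 2.4e-10). In Gfap/Adamts18 astrocytes Nkx6-2 had 2.90 to 7.87 CPM (median 4.07), and that difference was not called (0.24 ± 0.32). The low level was thus shared by these 2 classes. Nr2f1, Nr2f2 and Meis1 were also lower than in Slc6a11/Itih3 astrocytes. Against Gfap/Adamts18 astrocytes Nr2f2 was lower and Meis1 higher. Nkx2-1, a factor of the medial ganglionic eminence and preoptic area, did not pass the filter on low counts.

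Pathway genes of Sonic hedgehog, the ventral signal that induces its own receptor Ptch1 and the effector Gli1, were called in both directions. Of 13 tested, 6 were lower than in Slc6a11/Itih3 astrocytes (46.2%, against 9.54% of genes of at least 30 CPM) and 4 higher (30.8%, against 11.4%), with a median of -0.06. Ptch1 had 322 to 429 CPM (median 373) in the Gldc/Grin2c astrocytes, against 663 to 892 CPM (median 796) in Slc6a11/Itih3 and 237 to 336 CPM (median 296) in Gfap/Adamts18 astrocytes. Gli1 had 18.97 to 29.8 CPM (median 22.9), against 38.9 to 56.9 CPM (median 51.5) and 19.6 to 44.6 CPM (median 28.1). Against the Slc6a11/Itih3 astrocytes both were lower without overlap, by 1.07 and 1.11 on the log2 scale (adjusted p = 5.1e-15 and 3.5e-08). Against Gfap/Adamts18 astrocytes Ptch1 was higher by 0.49 and Gli1 was not called (-0.15 ± 0.14). The coreceptor gene Boc and the effector gene Gli3, which acts mainly as a repressor, stood above both. Gli3 had 615 to 692 CPM (median 657), against 496 to 599 CPM (median 524) and 459 to 526 CPM (median 479). The coreceptor gene Cdon was between the classes, with 26.1 to 33.003 CPM (median 28.5) in the members, against 7.08 to 18.6 CPM (median 12.4) and 66.9 to 86.5 CPM (median 74.3). Set against the Gfap/Adamts18 astrocytes, 5 of the list were higher and 3 lower (38.5% and 23.1%, against 23.1% and 14.5% of genes of at least 30 CPM, median 0.17).

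**Figure D3:**
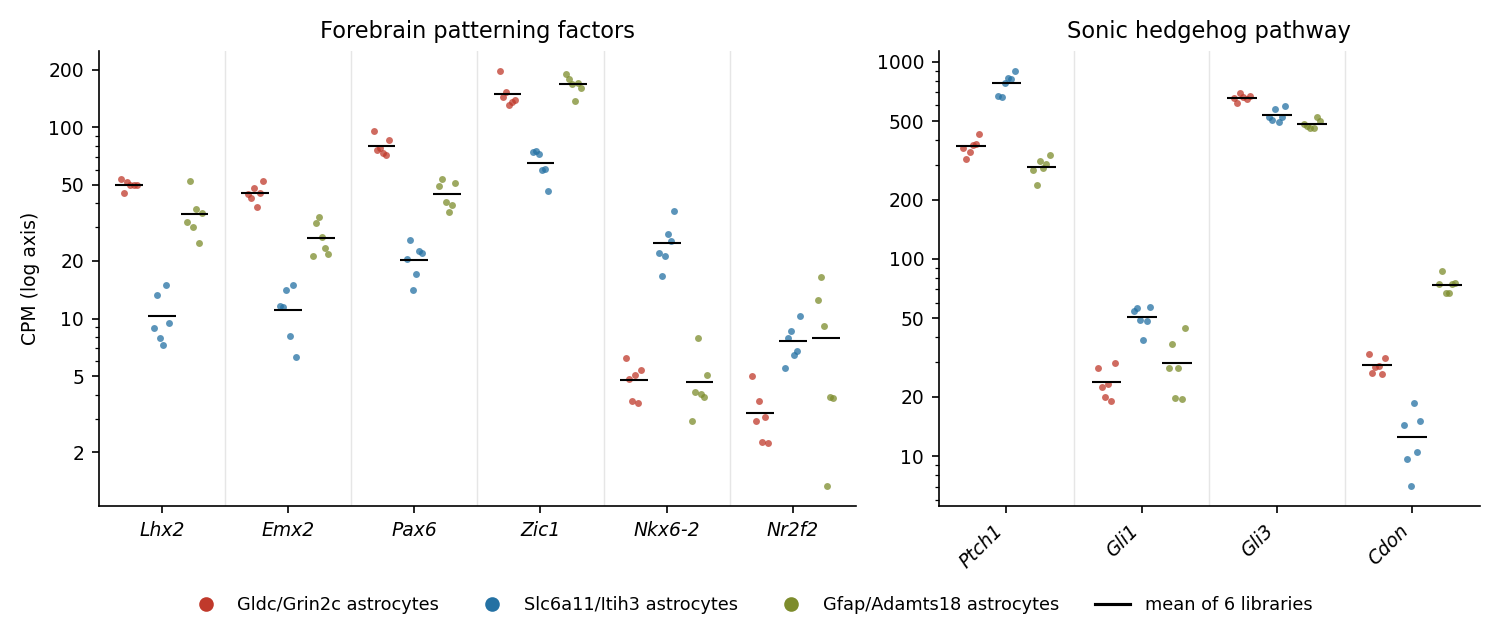
CPM (log axes) of named forebrain patterning factors (left) and Sonic hedgehog pathway genes (right) in the Gldc/Grin2c (red), Slc6a11/Itih3 (blue) and Gfap/Adamts18 (green) astrocytes, 1 point per library and a bar at the mean of 6 libraries. Emx2 in the members lies between 38.5 and 52.6, above both other classes, while Ptch1 lies between 322 and 429, below the Slc6a11/Itih3 values.

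Among BMP, TGF-beta and Wnt genes the balance was mixed. Of 24 tested, 9 were higher and 4 lower than in Slc6a11/Itih3 astrocytes (37.5% and 16.7%, against 11.4% and 9.54% of genes of at least 30 CPM, median 0.21). The 4 were 2 without replicate 2. Against Gfap/Adamts18 astrocytes 7 were higher and 5 lower (29.2% and 20.8%, against 23.1% and 14.5% of such genes, median 0.06). Besides Chrdl1, the R-spondin receptor gene Lgr4 and the agrin receptor gene Lrp4 stood above both. Lgr6, another R-spondin receptor gene, stood below both, with 3.95 to 6.49 CPM (median 5.38) in the Gldc/Grin2c astrocytes, against 15.003 to 22.5 CPM (median 17.6) in Slc6a11/Itih3 and 16.5 to 29.9 CPM (median 24.5) in Gfap/Adamts18 astrocytes (adjusted p = 1.2e-07). Of 16 genes of FGF, EGF and neuregulin signalling, 4 were higher and 3 lower than in Slc6a11/Itih3 (25% and 18.8%, median -0.02) and 10 higher and 3 lower than in Gfap/Adamts18 astrocytes (62.5% and 18.8%, median 0.36). The 4 higher were 2 without replicate 2, 3 or 5, with DESeq2 and with no replicate block. The receptor gene Fgfr1 stood above both, at 214 to 257 CPM (median 229.8), against 105 to 151 CPM (median 123) and 133 to 194 CPM (median 154) (adjusted p = 1.9e-06), and so did Fgfr2. Fgfr3, the FGF receptor gene most used as an astrocyte marker, took a middle place with 134 to 153 CPM (median 147) in the members, against 159.7 to 225 CPM (median 198) and 52.1 to 82.7 CPM (median 62.2). The neuregulin receptor gene Erbb4 was lower than in Slc6a11/Itih3 astrocytes by 1.08 and higher than in Gfap/Adamts18 astrocytes by 0.32. Of 17 Notch genes, 2 were higher and 6 lower than in Slc6a11/Itih3 astrocytes (11.8% and 35.3%, median 0.01), with the target gene Heyl at 3.69 to 6.76 CPM (median 4.83) in the members, against 10.6 to 30.02 CPM (median 23.5). Of the same genes 4 were higher and 2 lower than in Gfap/Adamts18 astrocytes (23.5% and 11.8%, near the shares of genes of at least 30 CPM, median 0.03), and the 4 were 1 after thinning.

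Of 29 glial transcription factors tested, 9 were higher and 3 lower than in Slc6a11/Itih3 astrocytes (31.0% and 10.3%, against 11.4% and 9.54% of genes of at least 30 CPM, median 0.13). The list had 13 genes higher and 6 lower than in Gfap/Adamts18 astrocytes (44.8% and 20.7%, against 23.1% and 14.5%, median 0.18). The median level of the list was 129 CPM in the members. Tfcp2l1, Etv4, Etv5, Glis3 and Nfia stood above both. Tfcp2l1 had 17.5 to 24.7 CPM (median 21.4) in the Gldc/Grin2c astrocytes, against 2.36 to 7.94 CPM (median 3.29) in Slc6a11/Itih3 and 5.22 to 15.1 CPM (median 8.65) in Gfap/Adamts18 astrocytes, and the FGF-responsive factor gene Etv4 105 to 123 CPM (median 109.9), against 64.003 to 84.98 CPM (median 75.3) and 19.6 to 44.6 CPM (median 35.5). Neither gene overlapped between the members and another class. Sox9, which specifies glia, was at 41.7 to 63.4 CPM (median 52.2) in the members, against 31.8 to 47.4 CPM (median 34.8) and 39.1 to 62.4 CPM (median 50.3), and was higher than in Slc6a11/Itih3 astrocytes (0.47 ± 0.10, adjusted p = 1.1e-03).

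The clock list is described because Rorb belongs to the ROR receptors, which bind DNA elements ending in AGGTCA and drive the clock gene Arntl (Bmal1). Arntl had 187 to 212 CPM (median 194) in the Gldc/Grin2c astrocytes, against 78.8 to 117 CPM (median 86.04) in Slc6a11/Itih3 and 80.1 to 140.4 CPM (median 111) in Gfap/Adamts18 astrocytes. It stood above both without overlap, by 1.12 ± 0.08 and 0.95 ± 0.08 on the log2 scale (adjusted p = 6.3e-09). Of 19 tested clock and ROR genes, however, 2 were higher and 1 lower than in Slc6a11/Itih3 astrocytes (median -0.04). These shares of 10.5% and 5.26% lie near the 7.27% and 6.74% of all genes and below the 11.4% and 9.54% of genes of at least 30 CPM. The 2 were 1 without replicate 1, 2, 3, 4 or 6, with DESeq2 and with no replicate block, and the 1 was 2 without replicate 5. Against Gfap/Adamts18 astrocytes 13 were higher and 2 lower (68.4% and 10.5%, against 23.1% and 14.5% of genes of at least 30 CPM, median 0.54), among them Npas2 (log2 difference 1.04). Rora, the relative of Rorb that is abundant in astrocytes, had 4081 to 4580.2 CPM (median 4340.5) in the members, against 4147 to 4686 CPM (median 4371) and 3096 to 3837 CPM (median 3723). It differed from Slc6a11/Itih3 astrocytes by -0.02 ± 0.03, not called, and from Gfap/Adamts18 astrocytes by 0.41 ± 0.03 (adjusted p = 7.0e-10).

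The Arntl start is shown because that gene is the textbook ROR target and stood above both classes. In the RefSeq window from 250 bases before to 50 bases after an annotated start (GRCm38.p6), TAGGTCA lies 30 bases after the start. The stretch chr7:113207530-113207559 on the plus strand is printed, with the motif within it in capitals.
Arntl start: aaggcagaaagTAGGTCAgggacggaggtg
On either strand, TAGGTCA was in 2.61% of 32851 such windows and the shorter AGGTCA, which it contains, in 16.3%. Of the 4 rule genes of the leading set 0 windows held TAGGTCA and 1 held AGGTCA. Of the named genes furthest above both, 6 had a window, of which 0 held TAGGTCA and 1 AGGTCA. Of the 13 with a window among those furthest above or below both, 0 held TAGGTCA and 3 AGGTCA. These letters are a description of the windows and not a measurement of binding.

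Of 16 tested genes for uptake and recycling of glutamate and GABA, 6 were higher and 3 lower than in Slc6a11/Itih3 astrocytes (37.5% and 18.8%, against 11.4% and 9.54% of genes of at least 30 CPM, median 0.08). The list had 9 genes higher and 2 lower than in Gfap/Adamts18 astrocytes (56.2% and 12.5%, against 23.1% and 14.5%, median 0.45), so that the share lower was near that of such genes. The 2 were 1 without replicate 6. Slc38a3, Glul, Maob and Slc1a3 stood above both. Glul, the glutamine synthetase gene, had 339.9 to 402 CPM (median 386) in the Gldc/Grin2c astrocytes, against 269 to 319 CPM (median 308) in Slc6a11/Itih3 and 176 to 239 CPM (median 191) in Gfap/Adamts18 astrocytes (adjusted p = 2.1e-04). The glutamine exporter gene Slc38a3 had 97.9 to 121 CPM (median 107), against 64.8 to 102 CPM (median 82.8) and 41.7 to 61.1 CPM (median 48.3), with overlap against the first. The second glutamate transporter gene, Slc1a3, had 2590.5 to 2932 CPM (median 2874), against 1986 to 2239 CPM (median 2139.8) and 2260.1 to 2975 CPM (median 2641). Its difference from Gfap/Adamts18 astrocytes (0.24 ± 0.04, adjusted p = 3.0e-05) was no longer called, at 0.0863 with an edgeR adjusted p of 0.095, when nuclei with markers of other cell types were removed. The GABA transaminase gene Abat lay between the classes, with 127 to 155 CPM (median 141) in the members, against 210.1 to 257 CPM (median 218) and 89.2 to 133 CPM (median 104).

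Gldc is the glycine decarboxylase gene of the rule. Of 20 other tested genes of glycine cleavage, serine and one-carbon metabolism, 1 was higher and 4 lower than in Slc6a11/Itih3 astrocytes (5% and 20%, against 7.27% and 6.74% of all genes, median -0.08), and 3 were higher and 4 lower than in Gfap/Adamts18 astrocytes (15% and 20%, against 13.9% and 13.6%, median -0.06). The 4 lower than in Gfap/Adamts18 astrocytes were 2 without replicate 2, 5 or 6, 1 with no filter on low counts and 0 after thinning. The partner subunits of Gldc were not called in either comparison. Amt, the T-protein gene, had 6.53 to 11.9 CPM (median 9.53) in the Gldc/Grin2c astrocytes, against 9.44 to 14.97 CPM (median 12.8) in Slc6a11/Itih3 and 2.68 to 15.7 CPM (median 10.4) in Gfap/Adamts18 astrocytes. Gcsh, the H-protein gene, had 5.64 to 6.26 CPM (median 5.92), against 4.41 to 15.7 CPM (median 8.06) and 3.94 to 14.01 CPM (median 9.56). At these levels a small difference would not be detectable. The glycine transporter gene Slc6a9 had 11.1 to 21.9 CPM (median 12.2) in the members, against 54.7 to 79.8 CPM (median 60.6) in Slc6a11/Itih3 astrocytes, where it was 4.49 times as high as in the members, without overlap (-2.17 ± 0.12, adjusted p = 2.6e-13). Its level in Gfap/Adamts18 astrocytes was 9.13 to 19.1 CPM (median 15.4), and that difference was not called (0.13 ± 0.19). Slc7a10, which carries small neutral amino acids such as serine and glycine, had 149 to 188 CPM (median 167) in the members, against 191 to 229 CPM (median 208) and 59.01 to 92.96 CPM (median 75.97). It was lower than in the first class by 0.33 and higher than in the second by 1.29.

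Of 22 glutamate receptor genes other than Grin2c, 4 were higher and 4 lower than in Slc6a11/Itih3 astrocytes (18.2% each, against 11.4% and 9.54% of genes of at least 30 CPM, median -0.05). Set against Gfap/Adamts18 astrocytes, 8 were higher and 7 lower (36.4% and 31.8%, against 23.1% and 14.5%, median -0.05), and the 7 were 4 when nuclei that held markers of other cell types were removed. The AMPA receptor gene Gria1 was at 328 to 438 CPM (median 397) in the Gldc/Grin2c astrocytes, against 1438 to 1885 CPM (median 1654) in Slc6a11/Itih3 and 506 to 717 CPM (median 643) in Gfap/Adamts18 astrocytes. It stood below both without overlap, by 2.10 and 0.54 on the log2 scale (adjusted p = 5.2e-05). GABAergic neurons held 2451 CPM of Gria1. The neuron marker sum beside it averaged 2581 CPM in the members, against 2584 CPM in Slc6a11/Itih3 and 4119 CPM in Gfap/Adamts18 astrocytes, and its part was not tested. Its partner Gria2 stood above both, at 2198 to 2409 CPM (median 2284), against 1820.5 to 2161 CPM (median 1929) and 947 to 1201 CPM (median 1089). The metabotropic receptor gene Grm3 stood above both at 2131 to 2263 CPM (median 2180.1), against 1246 to 1478 CPM (median 1334) and 1317 to 1464 CPM (median 1393) (adjusted p = 4.9e-12), and so did the kainate receptor gene Grik1 and the NMDA receptor gene Grin2b. Grm5 had 539 to 759 CPM (median 584), against 646 to 898 CPM (median 715) and 455 to 913 CPM (median 527), with overlap between all classes. GABAergic neurons held 4503 CPM of Grm5.

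Of 13 GABA receptor genes, 3 were higher and 2 lower than in Slc6a11/Itih3 astrocytes (23.1% and 15.4%, median -0.03), and 5 higher and 4 lower than in Gfap/Adamts18 astrocytes (38.5% and 30.8%, against the same shares of genes of at least 30 CPM, median -0.07). Gabbr2, the GABA-B receptor subunit gene, had 193 to 287 CPM (median 219.8) in the Gldc/Grin2c astrocytes, against 543 to 642 CPM (median 596) in Slc6a11/Itih3 and 104 to 198 CPM (median 143) in Gfap/Adamts18 astrocytes. The members thus took a middle place without overlap with the first class (-1.41 ± 0.07, adjusted p = 4.5e-14). Gabra2 and Gabrb1, subunits of GABA-A receptors, stood above both, with Gabra2 at 292 to 370.3 CPM (median 324), against 148 to 267 CPM (median 196) and 179.8 to 327 CPM (median 244). With nuclei that held markers of other cell types removed, 1 GABA receptor gene in place of 4 was lower than in Gfap/Adamts18 astrocytes, as after thinning, and with predicted doublets removed 2 were.

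Of 20 other G protein-coupled receptor genes, 5 were higher and 5 lower than in Slc6a11/Itih3 astrocytes (25% each, against 11.4% and 9.54% of genes of at least 30 CPM, median -0.03), and 7 higher and 4 lower than in Gfap/Adamts18 astrocytes (35% and 20%, against 23.1% and 14.5%, median -0.03). The endothelin receptor gene Ednra and the sphingosine phosphate receptor gene S1pr1 stood above both, and Gprc5b below both. The adenosine receptor gene Adora1 had 16.8 to 21.3 CPM (median 19.1) in the members, against 25.97 to 49.8 CPM (median 37.9) and 10.4 to 17.8 CPM (median 13.1), and the beta-1 adrenergic receptor gene Adrb1 was higher than in Gfap/Adamts18 astrocytes by 1.26. Adgrv1, a large adhesion receptor gene, was at 66.3 to 99.01 CPM (median 82.01) in the members, against 339.9 to 401 CPM (median 372) in the Gfap/Adamts18 astrocytes (-2.03 ± 0.08, adjusted p = 1.4e-15).

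Of 29 tested ion, water and gap junction genes, 5 were higher and 11 lower than in Slc6a11/Itih3 astrocytes (17.2% and 37.9%, against 11.4% and 9.54% of genes of at least 30 CPM, median 0.04). The 5 were 3 without replicate 6, and the 11 were 7 after thinning. The list had 16 genes higher and 3 lower than in Gfap/Adamts18 astrocytes (55.2% and 10.3%, against 23.1% and 14.5%, median 0.35). Trpm3, a cation channel gene, had 2763 to 3137 CPM (median 2918) in the Gldc/Grin2c astrocytes, against 6383 to 8030.1 CPM (median 6929.8) in Slc6a11/Itih3 and 963 to 1193 CPM (median 1104) in Gfap/Adamts18 astrocytes. The 3 classes did not overlap (-1.28 ± 0.05 and 1.58 ± 0.05). Kcnj10, the inward rectifier that buffers potassium, had 56.3 to 70.7 CPM (median 65.4), against 69.7 to 122 CPM (median 98.6) and 40.2 to 59.9 CPM (median 51.5), in the same order. The tandem-pore potassium channel genes Kcnk2 and Kcnk1 and the chloride channel gene Clcn2 stood above both, with Kcnk2 at 308 to 340.3 CPM (median 323), against 171 to 238 CPM (median 177) and 185 to 240.2 CPM (median 216) (adjusted p = 7.6e-08). The gap junction gene Gja1 was higher than in Slc6a11/Itih3 astrocytes by 0.32 ± 0.07 and did not differ by a call from Gfap/Adamts18 astrocytes (0.07 ± 0.08).

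**Figure D4:**
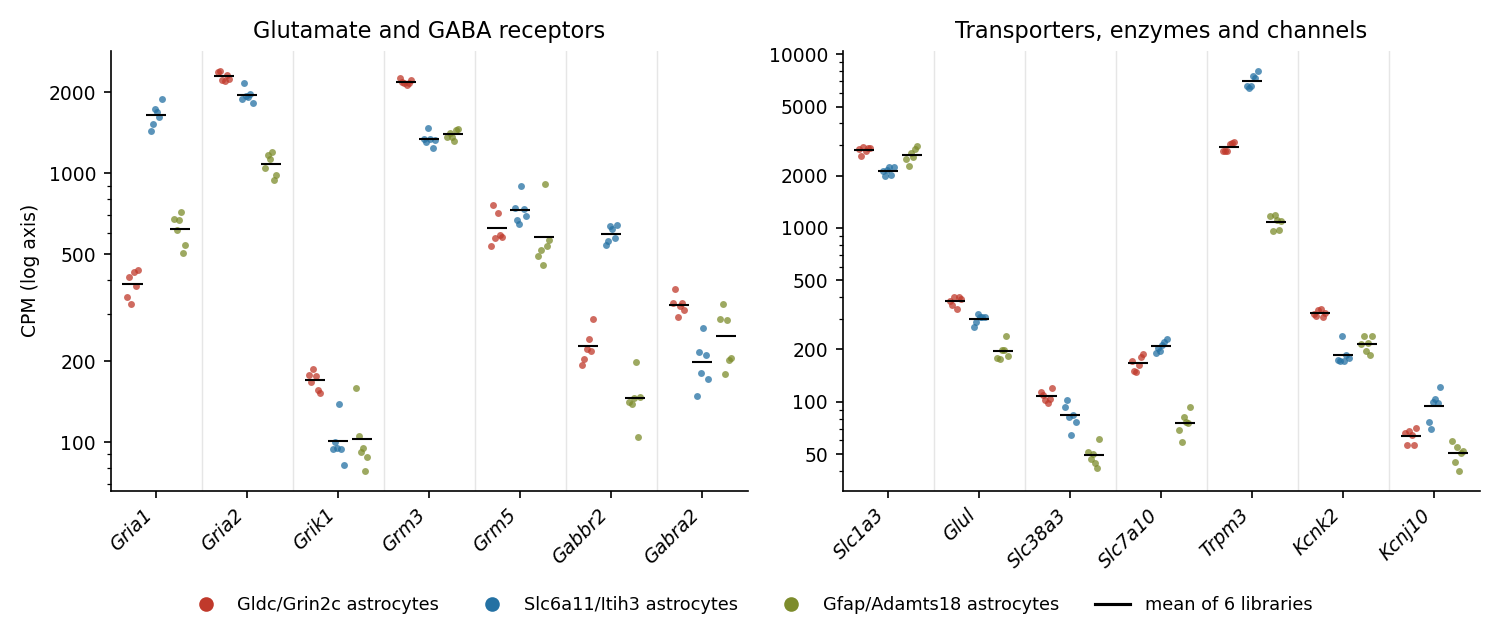
CPM (log axes) of named receptor genes (left) and of transporter, enzyme and channel genes (right) in the Gldc/Grin2c (red), Slc6a11/Itih3 (blue) and Gfap/Adamts18 (green) astrocytes, 1 point per library and a bar at the mean. Gria1 in the members lies between 328 and 438, below every point of the other classes, and Grm3 lies between 2131 and 2263, above every one.

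Of 32 lipid and cholesterol genes, 4 were higher and 3 lower than in Slc6a11/Itih3 (median -0.02), shares of 12.5% and 9.38% near the 11.4% and 9.54% of genes of at least 30 CPM. The 4 were 2 without replicate 1 and with no replicate block. The list had 20 higher and 2 lower than in Gfap/Adamts18 astrocytes (62.5% and 6.25%, against 23.1% and 14.5% of such genes, median 0.45), and the 2 were 1 without replicate 1, 2 or 5. Acsbg1, a fatty acyl-CoA synthetase gene, had 232 to 272 CPM (median 248) in the Gldc/Grin2c astrocytes, against 257 to 322 CPM (median 297) in Slc6a11/Itih3 and 86.5 to 143 CPM (median 119) in Gfap/Adamts18 astrocytes. Of 25 glycolysis, lactate and glycogen genes, 3 were higher and 4 lower than in Slc6a11/Itih3 (12% and 16%, median -0.09) and 17 higher and 1 lower than in Gfap/Adamts18 astrocytes (68.0% and 4%, median 0.50). Aldoc, the brain aldolase gene, had 68.6 to 88.5 CPM (median 73.7) in the members, against 47.8 to 61.4 CPM (median 54.8) and 33.1 to 48.6 CPM (median 41.6), and stood above both (adjusted p = 4.7e-04). The glycogen phosphorylase gene Pygm had 11.001 to 14.2 CPM (median 13.3), against 17.3 to 33.5 CPM (median 29.99) and 0 to 13.1 CPM (median 3.40). With nuclei that held markers of other cell types removed, the counts against Gfap/Adamts18 astrocytes were 18 higher and 1 lower for lipid genes and 13 higher for glycolysis genes. The astrocyte marker sum was itself lower in the Gfap/Adamts18 astrocytes, as given above.

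Of 31 tested secreted and matrix genes, 11 were higher and 6 lower than in Slc6a11/Itih3 astrocytes (35.5% and 19.4%, against 11.4% and 9.54% of genes of at least 30 CPM, median 0.11). Set against Gfap/Adamts18 astrocytes, 18 were higher and 9 lower (58.1% and 29.03%, against 23.1% and 14.5%, median 0.41), and the 9 were 5 with DESeq2. The median level of the list was 262 CPM in the members. Above both stood 9 genes (29.03%, against 2.58% of all genes), namely Chrdl1, Hapln1, Ptn, Mertk, Cspg5, Gpc6, Lama2, Ptprz1 and Lsamp. Ptn, the secreted growth factor pleiotrophin, had 779 to 910.0 CPM (median 872) in the Gldc/Grin2c astrocytes, against 437 to 552 CPM (median 481) in Slc6a11/Itih3 and 406 to 449.9 CPM (median 421) in Gfap/Adamts18 astrocytes (adjusted p = 1.9e-11), and its receptor gene Ptprz1 is on the same list. The guidance cue gene Slit2 stood below both, at 229 to 296 CPM (median 266), against 320.0 to 408 CPM (median 374) and 649 to 850.3 CPM (median 765). Gpc5, a glypican gene, had 10693 to 11480.0 CPM (median 11044), against 12783 to 14187 CPM (median 13238) and 2388 to 2787 CPM (median 2588). It was lower than in Slc6a11/Itih3 astrocytes by 0.28 and higher than in Gfap/Adamts18 astrocytes by 2.25. Thbs4, a thrombospondin gene, was 9.69 times as high in the members as in Slc6a11/Itih3 astrocytes, where 1 or more libraries had 0 UMIs, with 29.9 to 58.9 CPM (median 41.3), against 0 to 8.83 CPM (median 4.47). In Gfap/Adamts18 astrocytes it had 32.1 to 101 CPM (median 75.7).

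Genes known to differ between astrocytes of different brain regions split in both directions against the Slc6a11/Itih3 astrocytes. Of 20 tested, 9 were higher and 8 lower than in Slc6a11/Itih3 (45% and 40%, against 11.4% and 9.54% of genes of at least 30 CPM, median 0.06), and the 8 were 5 after thinning. The list had 11 genes higher and 2 lower than in Gfap/Adamts18 astrocytes (55% and 10%, against 23.1% and 14.5%, median 0.46), and the 2 were 1 without replicate 2 and with DESeq2. Agt, the angiotensinogen gene and a marker of astrocytes outside the telencephalon, had 5.16 to 9.62 CPM (median 6.18) in the Gldc/Grin2c astrocytes, against 23.8 to 40.1 CPM (median 31.9) in Slc6a11/Itih3 and 5.35 to 15.6 CPM (median 8.02) in Gfap/Adamts18 astrocytes. It was lower than in Slc6a11/Itih3 astrocytes without overlap (-2.27 ± 0.16, adjusted p = 5.0e-11), and was seen in 2.22% of thinned members, against 11.3% of that class. Mfge8, a bridging protein of phagocytosis found in astrocytes of the telencephalon, stood above both at 86.6 to 96.7 CPM (median 88.8), against 38.9 to 77.9 CPM (median 60.7) and 37.7 to 59.9 CPM (median 46.8) (adjusted p = 1.7e-04). Of 9 fibrous and reactive genes, Osmr and Ggta1 were higher than in Slc6a11/Itih3 astrocytes (22.2%, against 7.27% of all genes, median 0.25), and 1 was higher and 3 lower than in Gfap/Adamts18 astrocytes (11.1% and 33.3%, against 13.9% and 13.6%, median -0.11). Only 2 immediate early genes passed the filter on low counts. Of these Jun had 6.01 to 13.02 CPM (median 9.19) in the members, against 1.57 to 4.86 CPM (median 3.24) in Slc6a11/Itih3 astrocytes (median of the list 0.97). Jun was called higher than in that class, but not without replicate 1 or without replicate 2. Nor was it called after thinning, with a leading sum at least 2 times the next, or with doublets, other-marker nuclei or ependymal marker nuclei removed. The difference of Jun from Gfap/Adamts18 astrocytes was not called (0.60 ± 0.33, median of the list 0.08).

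**Figure D5:**
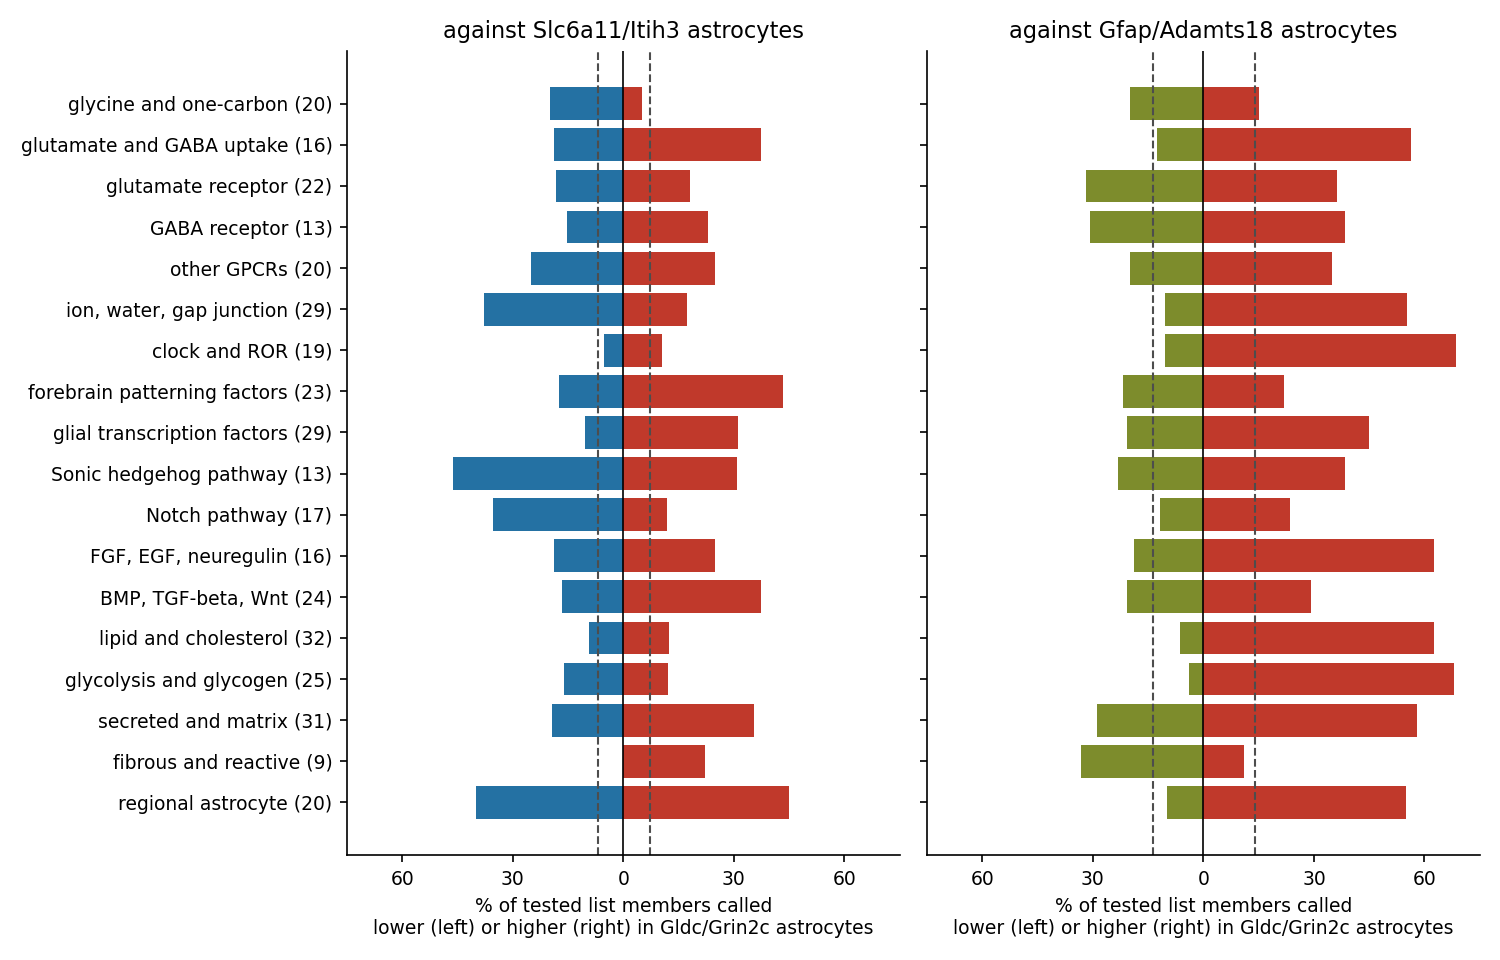
Share of the tested members of each gene list with 9 or more of them (number in brackets) that was called lower (left of 0) or higher (right of 0) in the Gldc/Grin2c astrocytes against the Slc6a11/Itih3 (left panel) and Gfap/Adamts18 (right panel) astrocytes, with dashed lines at the share of all 10477 genes. Forebrain patterning factors reach 43.5% higher in the left panel, and glycolysis and lipid genes reach 68.0% and 62.5% higher in the right panel.

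Outside the lists, the largest differences from the Slc6a11/Itih3 astrocytes included Hopx, Ankrd29 and Syt17, higher in the members, and Svep1 and Fry, lower. Hopx, a homeodomain-only protein gene of radial glia, had 31.4 to 46.9 CPM (median 35.2) in the Gldc/Grin2c astrocytes, against 5.30 to 8.10 CPM (median 7.28) in Slc6a11/Itih3 astrocytes, without overlap. Fry had 304 to 421 CPM (median 353), against 1019 to 1553 CPM (median 1207). Against the Gfap/Adamts18 astrocytes the ranking took genes not already ranked, among them the list members Gpc5 and Etv4. Of these Fam163a, Gpc5, Ptchd4, Vav3 and Etv4 were furthest up and Drd3, Enkur, Eya2, Nek5 and Armc3 furthest down. Luzp2, Dio2 and Lama3, already ranked above both classes, differed by 2.39, 2.23 and 2.05 on the log2 scale, against 1.85 for Etv4. Vav3, an exchange factor gene for small GTPases, had 132 to 148 CPM (median 143) in the members, against 20.4 to 48.03 CPM (median 39.1) in the Gfap/Adamts18 astrocytes and 212 to 294 CPM (median 232) in the Slc6a11/Itih3 astrocytes. Drd3, a dopamine receptor gene, had 2.06 to 6.88 CPM (median 5.47), against 45.3 to 80.3 CPM (median 73.5). Enkur is a gene of motile cilia, and the ependymal marker sum was higher on average in the Gfap/Adamts18 astrocytes, with overlap between libraries, as given above. With every nucleus that held an ependymal marker UMI removed, an alternative chosen after the data were seen, 1396 genes in place of 1457 were higher and 1301 in place of 1424 lower than in that class.

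Among themselves the libraries of the Gldc/Grin2c astrocytes were alike. The median coefficient of variation over 6 libraries was 6.59% across 4661 genes. The genes of at least 30 CPM that varied most were Zfp804b (39.0%), Hs3st4, Ntng1, Synpr and Nrg3os. Zfp804b had 55.0, 169, 75.3, 127, 107 and 89.7 CPM in replicates 1 to 6, while the neuron marker sum in the same nuclei was 2155, 3447, 2154, 3017, 2454 and 2259 CPM. GABAergic neurons held 1008 CPM of Zfp804b. Replicates 2 and 4 were highest in both measures, and the part of neuronal RNA in this gene was not tested.

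Nuclei within a library also differed. After thinning to 4000 UMIs, the ratio of variance to mean over nuclei was 1.18 for the median of 5547 genes. It was highest for Malat1, a nuclear non-coding RNA, at 29.3 (range over libraries 25.1 to 32.4). Luzp2, at 14.9 (13.5 to 16.2), Lsamp, at 10.7, Gpc5, at 10.6, and Trpm3, at 8.33, followed among genes that were abundant in the class, together with genes such as Lhfpl3 (15.4), Tmeff2 (13.7) and the oligodendrocyte marker St18 (8.71) that had few UMIs in most nuclei. This ratio was not adjusted for level and can rise with it, so its order does not rank genes by relative spread. The mean was 211.6 UMIs per nucleus for Malat1, 81.2 for Lsamp and 30.7 for Luzp2, but 1.19 for Lhfpl3. Of the members, 576 (9.25%) were called doublets, against 8.72% of Slc6a11/Itih3 and 10.5% of Gfap/Adamts18 astrocytes.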

How the data were processed

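Single-nucleus libraries were made with Chromium 3' version 3 chemistry, per the labels' protocols. The authors deposited a matrix of whole-number UMI counts per gene and barcode for each of 6 libraries. Cell Ranger 3.1.0 and STAR are named per the submitters' processing notes, and Cell Ranger 5.0.0 per the file headers. Genome build and treatment of intron reads: not given in the sources used here. Members and gene lists were chosen with earlier results of these data known, so no list is independent evidence.

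Nuclei were chosen by raw UMIs, so a deeply sequenced nucleus passes the gate more easily. Counts were summed per library and class (18 sums) and tested in a single fit with edgeR 4.0.16 (TMM scaling, its filter on low counts, quasi-likelihood test, library as a block, R 4.3.3). The block is the library itself, since all 3 classes come from the same nuclei suspensions. On simulated data the test recovered 96.97% of genes changed 2-fold in either comparison. For 1.5-fold changes it recovered 84.6% against Slc6a11/Itih3 and 72.3% against Gfap/Adamts18 astrocytes (10265 genes). The simulation gave every gene the same dispersion, the classes 1 shared expression profile apart from the changed genes, and no library effect beyond depth. Its rates may therefore be higher than those for the real genes. Levels are UMIs scaled to a class sum of 1000000 (CPM). Since 3' counting gives 1 tag per molecule, they were not divided by length and are compared between classes, not genes. The log2 differences use the TMM scaling, which CPM do not carry, so small ones can differ from the CPM in size or sign. Against Gfap/Adamts18 astrocytes Gja1 averaged 205 CPM in the members and 217 CPM there, but its log2 difference was 0.07. Slc1a3 averaged 2824 and 2646 CPM, with a log2 difference of 0.24. Doublets were scored against simulated pairs of nuclei (30 components, 2000 genes, 50 neighbours) and kept. DESeq2 1.42.0 was an alternative. Fewer nuclei of a kind and less RNA per nucleus cannot be told apart in shares of UMIs.

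Genes are named as the 12 largest in each direction above both or below both. Of genes not already named, the 5 largest in each direction of each comparison were added. The called list member with the largest difference in each direction is named as well. So are a set list of astrocyte genes and the 5 genes that varied most over libraries. Where a ranking was used, genes had at least 30 CPM and the same direction in 6 of 6 libraries. Further list members above or below both are named in the text after their values were seen. Results of some genes are not reported here.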

Additional observations from a re-analysis of the deposited data

Results flagged for a closer look

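Of 128 sets of 6 values examined in the Gldc/Grin2c astrocytes, 6 held a library far from the other 5 by Dixon's criterion, which chance alone meets in about 1 of 20 sets. The members made up 12.94% of the filtered nuclei in replicate 1, against 10.88% to 11.51% in the other libraries. Zic1 was at 195.8 CPM in replicate 1, against 130.4 to 153.2 CPM. Eya4 was at 20.29 CPM in replicate 4, against 28.41 to 31.8 CPM. Agt was at 9.619 CPM in replicate 6, against 5.157 to 6.388 CPM, and remained under the 23.8 CPM of the lowest Slc6a11/Itih3 library. Kcnk10 was at 31.28 CPM in replicate 2, against 36.98 to 40.4 CPM. Id2 was at 38.7 CPM in replicate 5, against 24.8 to 29.07 CPM.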

How the results depend on the processing

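The count of genes called in each direction stayed within 1.5 times under all 16 alternatives. A similar count did not always mean the same genes, and the share called again was lowest after thinning. Of the genes higher and lower than in Slc6a11/Itih3 astrocytes, 72.05% and 70.25% were then called again. Against Gfap/Adamts18 astrocytes 67.81% and 60.18% were. With nuclei holding markers of other cell types removed, these last 2 shares were 79.27% and 70.37%. Leaving out each library in turn gave 660 to 712 genes higher and 616 to 645 lower than in Slc6a11/Itih3 astrocytes, 1304 to 1360 higher and 1200 to 1343 lower than in Gfap/Adamts18 astrocytes, and 221 to 243 above both and 72 to 80 below both. With no replicate block the counts were 695, 673, 1406, 1329, 248 and 81, and with DESeq2 661, 643, 1269, 1247, 247 and 90, in the same order. Of 198 called differences of the 121 named genes, 176 were called in the same direction under every alternative and 2 reversed.

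The share of members among gated nuclei depended on the rule. It was 55.2% with a leading sum of 6 or more, 48.7% with a sum at least 2 times the next, 65.6% when the rule was applied to nuclei thinned to 4000 UMIs, 53.7% with Slc1a2 of 4 or more and 72.7% with 16 or more.

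With nuclei holding markers of other cell types removed, the log2 differences from Gfap/Adamts18 astrocytes turned from -0.87 to 0.0558 for Ntng1 and from -0.86 to 0.0347 for Nrg3os. Both had been called in the main test, with edgeR adjusted p of 6.3e-04 and 0.014. The uncalled differences turned to -0.0160 for Aqp4, -0.0668 for Gja1 and 0.0539 for Amt. The cause was not tested. Uncalled differences near 0 also changed sign elsewhere. Against Slc6a11/Itih3 astrocytes, Aqp4 was -0.00241 with RLE size factors, -0.00214 with DESeq2, -0.0362 with a leading sum of 6 or more, -0.00528 with nuclei of other markers removed and -0.0448 to 0.0594 with a library left out, and Rora was 0.0121 with no filter on low counts. Against Gfap/Adamts18 astrocytes, with no filter Amt was 0.0544 and Zic1 0.0674, and Zic1 was 0.119 with a sum at least 2 times the next. With a library left out, Amt ran from -0.192 to 0.0797, Zic1 from -0.0701 to 0.0118 and Slc6a9 from -0.0104 to 0.213. Thinning, which keeps fewer nuclei, gave 14 in place of 20 lipid genes and 12 in place of 17 glycolysis genes higher than in Gfap/Adamts18 astrocytes. Genes under about 10 CPM rest on few UMIs in the smaller classes.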

Other observations

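The serine synthesis gene Psat1 was the 1 gene of the glycine and one-carbon list higher than in Slc6a11/Itih3 astrocytes, with 26.8 to 34.3 CPM (median 31.3) in the Gldc/Grin2c astrocytes, against 14.2 to 26.5 CPM (median 22.3). The amino acid transporter gene Slc38a2 had 41.9 to 59.2 CPM (median 54.1) in the members, against 17.8 to 47.3 CPM (median 31.9) in Slc6a11/Itih3 and 92.4 to 187 CPM (median 149) in Gfap/Adamts18 astrocytes, so that the members lay between the classes. The planar polarity receptor gene Celsr1 took the same middle place, with 16.3 to 23.7 CPM (median 18.8), against 2.43 to 8.91 CPM (median 6.24) and 24.8 to 44.6 CPM (median 32.5). The lipid carrier gene Clu had 131 to 179 CPM (median 147) in the members, against 71.9 to 129 CPM (median 90.8) and 117 to 173 CPM (median 142), and was higher than in Slc6a11/Itih3 astrocytes by 0.64 on the log2 scale (edgeR adjusted p = 9.7e-08). The matrix gene Sparc had 21.5 to 31.99 CPM (median 26.3), against 53.8 to 81.05 CPM (median 56.7) and 15.7 to 31.8 CPM (median 24.1), and was lower than in Slc6a11/Itih3 astrocytes by 1.25 (adjusted p = 1.2e-09). The calcium-binding protein genes S100b and S100a6 moved in opposite directions against the Gfap/Adamts18 astrocytes. S100b was higher in the members by 1.22 and S100a6 lower by 1.88, with 4.51 to 6.88 CPM (median 5.52) in the members, against 15.1 to 35.4 CPM (median 21.2) in Gfap/Adamts18 astrocytes.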
